A study of Homo sapiens with 12 samples.

Results

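In a T-cell leukaemia line that overexpressed wild-type (WT) STAT5B, 259 of the 766 STAT5B regions called after prednisolone overlapped neither a STAT5B region of the untreated cells nor an NR3C1 region of the treated cells. These 259 regions are the members described here. They were chosen by overlap alone: a region on chromosomes 1 to 22, X or Y entered when it shared no base with the untreated STAT5B list of the same line or with that line's prednisolone NR3C1 list. Of the other regions, 366 were called with and without prednisolone and lay at no NR3C1 region, and these are the comparison class. A further 53 were called only with prednisolone and lay at an NR3C1 region, and 88 were called with and without it at an NR3C1 region. Because absence from lists chose the members, their strength and their distance to those lists are descriptions, not findings.

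The study used SUPT-1, an established T-cell acute lymphoblastic leukaemia line, to examine STAT5 and steroid response. All cells carried a doxycycline-inducible STAT5B, selected with puromycin and induced with doxycycline, of either WT sequence or the N642H mutant, a substitution in the SH2 domain known to raise STAT5B activity. Each line was kept untreated or given 250 µg/ml prednisolone for 16 hours, and STAT5B and NR3C1 were each pulled down by chromatin immunoprecipitation and sequenced. There was 1 library per group, and all groups, the untreated ones included, shared the induced transgene. No cells without the transgene were analysed here, and the sources used here do not say whether each line was a clone or a pool. The tests therefore compare classes of regions within 1 list, not treatments, and a region called in 1 library and not in another has no replicate check.

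STAT5B is a transcription factor that Janus kinases phosphorylate downstream of cytokine receptors, among them the interleukin-7 receptor of developing T cells. Its dimers bind a palindrome that starts with TTC and ends with GAA. NR3C1 is the glucocorticoid receptor, which prednisolone drives into the nucleus, where it can bind its own palindrome or associate with other factors, STAT5 among them. Promoters of broadly expressed genes are open in most cells and often carry ETS motifs, GC boxes and CCAAT boxes.

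The sequences below show what lay under the strongest members at promoters. They are stretches of the promoters held by RefSeq (GRCh38.p14), which cover 15843 of 19866 protein-coding genes in 22183 windows of 300 bases, from 250 before a start to 50 after it. In all, 103 members had their summit, the base of highest signal, in such a window. Each stretch reads 5′ to 3′ on the gene's strand and reaches 60 bases to either side of the summit. Capitals mark the core of the ETS motif, CCGGAA or its complement TTCCGG. The first 6 have the highest −log10 q among the members with a summit in a window. INTS4 and MGAT1 are shown as 2 of the further members with a core near the summit, picked after their sequences were seen, and FOS as an immediate early gene.
AKR1B1 (chr7:134459257-134459377, minus strand): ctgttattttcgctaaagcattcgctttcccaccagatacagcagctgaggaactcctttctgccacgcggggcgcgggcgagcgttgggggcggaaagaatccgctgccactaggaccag
DNAJC2 (chr7:103344827-103344947, minus strand): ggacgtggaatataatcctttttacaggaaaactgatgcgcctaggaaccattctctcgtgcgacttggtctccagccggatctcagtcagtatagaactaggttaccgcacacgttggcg
FZD1 (chr7:91264278-91264398, plus strand): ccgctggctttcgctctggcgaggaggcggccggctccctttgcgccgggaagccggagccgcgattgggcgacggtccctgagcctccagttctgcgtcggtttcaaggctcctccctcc
NDUFA12 (chr12:95003688-95003808, minus strand): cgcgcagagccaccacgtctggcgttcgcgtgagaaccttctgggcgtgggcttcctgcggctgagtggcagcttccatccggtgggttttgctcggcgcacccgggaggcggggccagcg
GEMIN4 (chr17:752300-752420, minus strand): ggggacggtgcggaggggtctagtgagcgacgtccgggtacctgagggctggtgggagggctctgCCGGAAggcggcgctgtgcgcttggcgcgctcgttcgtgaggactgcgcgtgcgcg
KMT2E (chr7:105014019-105014139, plus strand): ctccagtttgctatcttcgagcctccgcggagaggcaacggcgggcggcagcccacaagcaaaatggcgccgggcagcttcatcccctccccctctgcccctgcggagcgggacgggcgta
INTS4 (chr11:77994768-77994888, minus strand): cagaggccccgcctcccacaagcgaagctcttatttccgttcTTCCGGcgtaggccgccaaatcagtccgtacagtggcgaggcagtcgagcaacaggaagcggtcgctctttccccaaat
MGAT1 (chr5:180810164-180810284, minus strand): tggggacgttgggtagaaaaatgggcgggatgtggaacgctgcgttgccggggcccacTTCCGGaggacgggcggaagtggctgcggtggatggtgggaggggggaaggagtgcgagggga
FOS (chr14:75278721-75278841, plus strand): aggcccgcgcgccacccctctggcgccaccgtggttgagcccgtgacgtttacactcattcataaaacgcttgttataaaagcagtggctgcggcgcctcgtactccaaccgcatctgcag
GEMIN4, INTS4 and MGAT1 held 1 core each in the stretch, and the stretches of AKR1B1, DNAJC2, FZD1, NDUFA12, KMT2E and FOS held none.

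The STAT palindrome with a 3-base spacer, TTCNNNGAA, was searched on both strands in the same windows. It was found in 8 of the 103 member windows, at KIAA0586, TRPC4AP, HNRNPR, TBL3, HNRNPH1, SDHAF3, CLPB and NUDT6. All but the TBL3 match, which lay 26 bp downstream of the start, are shown with up to 30 bases to either side and the match in capitals, because these are the promoter members that carry the motif that STAT5B itself is known to bind.
KIAA0586 (chr14:58427346-58427406, plus strand): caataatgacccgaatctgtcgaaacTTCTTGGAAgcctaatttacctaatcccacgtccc
TRPC4AP (chr20:35092998-35093057, minus strand): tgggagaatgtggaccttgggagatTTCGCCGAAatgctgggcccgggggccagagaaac
HNRNPR (chr1:23344320-23344380, minus strand): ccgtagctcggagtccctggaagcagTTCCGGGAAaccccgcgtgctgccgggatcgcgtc
HNRNPH1 (chr5:179623462-179623522, minus strand): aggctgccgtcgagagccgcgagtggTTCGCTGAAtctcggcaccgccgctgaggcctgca
SDHAF3 (chr7:97117632-97117692, plus strand): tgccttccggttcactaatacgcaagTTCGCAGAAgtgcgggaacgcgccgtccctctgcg
CLPB (chr11:72434624-72434684, minus strand): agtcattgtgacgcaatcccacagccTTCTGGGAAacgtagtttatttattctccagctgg
NUDT6 (chr4:122923122-122923182, minus strand): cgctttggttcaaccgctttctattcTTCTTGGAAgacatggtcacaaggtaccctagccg
The centre of the match lay 27 bp from the summit at HNRNPR, 41 bp at CLPB and 52 bp at KIAA0586, and farther away at the others. Only 2 of the 8 matches were inside the called region. At HNRNPR, a gene for an RNA-binding protein, the match also contained an ETS core, the only such overlap in the 103 windows.

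The 8 windows are 7.77% of the member windows (exact 95% interval 3.41 to 14.7). The palindrome was in 12 of 192 windows of regions called with and without prednisolone (6.25%, 3.27 to 10.7) and in 6.79% of all promoter windows. The difference between the classes was 1.52 percentage points (95% interval −4.25 to 8.83; Fisher's exact test, two-sided, Benjamini-Hochberg adjusted over 5 tests, p = 0.791), and the interval includes 0. The spacing of 4 bases, TTCNNNNGAA, was in 6.80% of member windows, 6.25% of the comparison class and 5.42% of all windows. The glucocorticoid receptor palindrome, GNACANNNTGTNC, was in 0 of 103 member windows, which allows a share of up to 3.52% (exact 95% interval), against 0.293% of all windows. These letters were not in these windows, which says nothing of the receptor.

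The ETS core was the motif whose share differed most between the 2 classes. It was in 41 of 103 member windows (39.8%, exact 95% interval 30.3 to 49.9), in 115 of 192 windows of the comparison class (59.9%, 52.6 to 66.9) and in 21.2% of all windows. The member share was above that of all windows and below that of the comparison class, and no test was run because the motif was picked after its values were seen. The CCAAT box (CCAAT, bound by NF-Y) was in 33.0% of member windows, 24.0% of the comparison class and 34.7% of all windows. The GC box (GGGCGG, bound by Sp factors) was in 68.0%, 64.6% and 56.3%. Median GC content was 65.3%, 64.7% and 62.3%, and the median ratio of observed to expected CpG was 0.868, 0.895 and 0.737. Windows at STAT5B regions of either class were thus richer in CpG than the median promoter.

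The members were weaker than the regions of the other classes. Fold enrichment, the authors' ratio of tags to local background at the summit, had a median of 6.65 in the members, with quartiles of 5.96 and 7.40 and a range of 2.20 to 12.2. The comparison class had a median of 7.29, the new regions at NR3C1 7.24 and the regions called with and without prednisolone at NR3C1 8.25. The median −log10 q was 4.80 in the members, against 6.15, 5.87 and 8.20. The tag count at the summit, solved from each region's fold and p, had a median of 14 in the members and a range of 9 to 74, against a median of 16 in the comparison class. The middle of the members thus spans 12 to 15 tags, and 183 members share their q exactly with another member. Members were also narrower, with a median width of 102 bp against 134.5 bp. The part of counting error in an absence from another list was not tested, and the depth of the libraries is unknown. The untreated WT list was longer, with 2267 regions and a median of 12 tags.

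**Figure D1:**
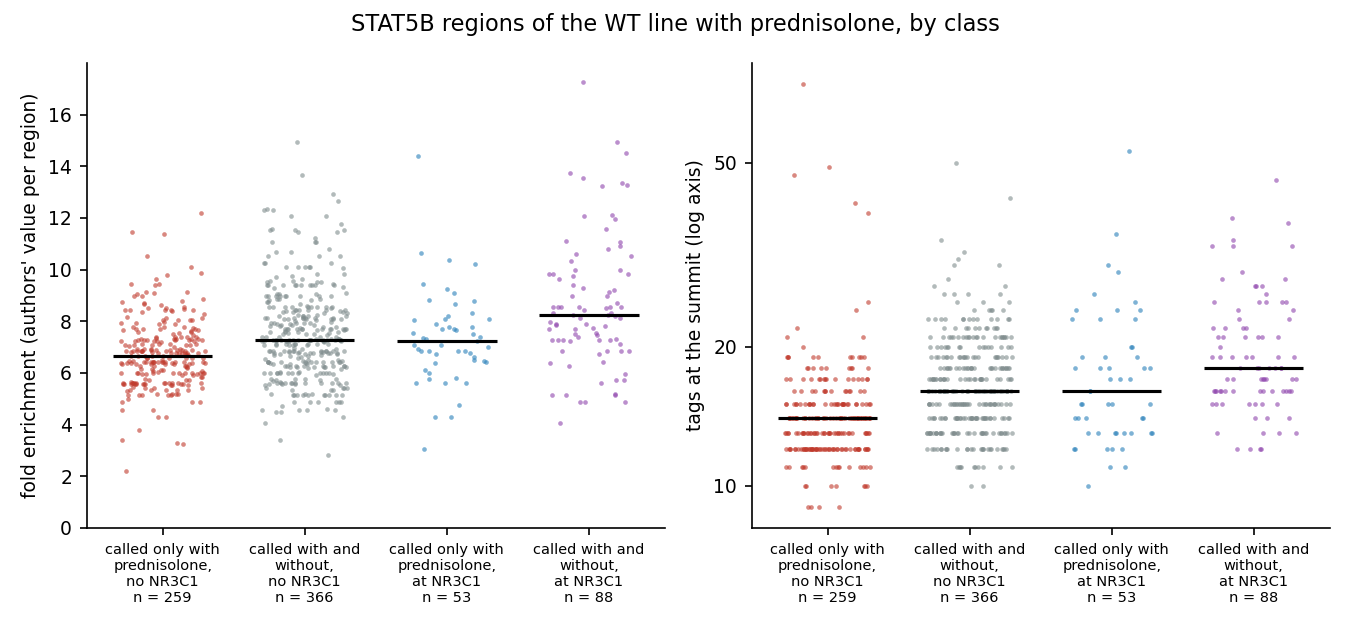
Fold enrichment (left, linear axis) and tags at the summit (right, log axis) of the 766 regions called for STAT5B in prednisolone-treated WT cells, 1 point per region, in the 4 classes; black lines are medians. The members (red) have the lowest medians, 6.65 in fold and 14 in tags, and the 4 members with the most tags, 41 to 74, have folds of 2.20 to 3.41.

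The rule's edges were narrow. At the border with the untreated list, the member nearest GMFB had a gap of 0 bp and those nearest CXXC5 and PDE1A a gap of 1 bp, while the regions nearest NVL and DUS1L were left out for overlaps of 2 and 3 bp. In all, 52 members (20.1%) lay within 500 bp of an untreated region and 64 within 10 kb, with a median gap of 89636 bp. For these 52 members, "new" says only that the called intervals shared no base. At the border with NR3C1, the member inside ARID1A, a gene for a chromatin remodelling subunit, had a gap of 22 bp and the FOS member 248 bp. Regions nearest LOC102724560 and CFAP298-TCP10L were left out for overlaps of 7 and 15 bp. Only 7 members lay within 500 bp of an NR3C1 region of the WT line, and the median gap was 684775 bp. The 52 members near an untreated region had a median fold of 6.61 and the other 207 one of 6.67.

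Most members lay at the ends of genes. Gene ends here are the outer limits of a protein-coding gene's span, and starts inside a span were not counted. The summit was within 1 kb of such an end for 172 of 259 members (66.4%, exact 95% interval 60.3 to 72.1), together at an end of 215 genes. Of the 172, 35 had no listed start within 1 kb. The comparison class had 245 of 366 (66.9%), and 58.7% of all 766 regions qualified. The difference between the 2 classes was −0.53 percentage points (95% interval −8.07 to 6.87; Fisher's exact test, adjusted p = 0.931). The interval leaves room for a difference of up to 8.07 points. Other measures of position were further apart, with no test run on them. A promoter window held the summit of 39.8% of members (exact 95% interval 33.8 to 46.0) and 52.7% of the comparison class (47.5 to 57.9). Inside a gene were 50.2% of members (43.9 to 56.4) and 38.3% of the comparison class (33.2 to 43.4). Of the new regions at NR3C1, with no test run, 3 of 53 (5.66%) were at a gene end, 28 were inside a gene away from its ends and 22 were between genes. Among the members, 45 were inside a gene away from its ends and 42 between genes. The 45 include members at a listed start inside a gene's span, such as PIK3R3 at 42 bp and GEMIN4 at 96 bp from it. Ends of 2 or more genes were within 1 kb of 45 members (17.4%) and of 66 of the 366 regions of the comparison class.

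Around starts, members were centred just upstream. A listed start was within 1 kb of 158 members (61.0%), a lower bound, since the table of starts does not cover all genes and has none on chromosome 8. Their median position was −44.5 bp, upstream being negative, and 83 of them (52.5%) were within 100 bp. For the comparison class, 232 summits were within 1 kb of a start, with a median of −60 bp and 56.5% within 100 bp. Of the 158 members, 112 (70.9%) were upstream, against 195 of 232 (84.1%) in the comparison class, a difference for which no test was run.

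**Figure D2:**
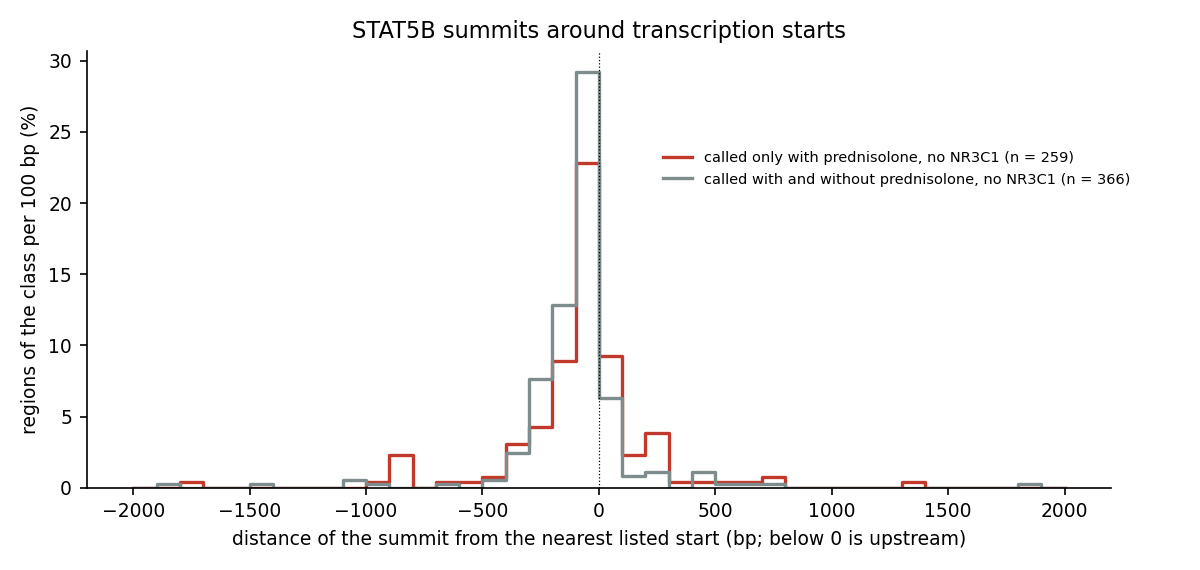
Signed distance from each summit to the nearest listed start, in bins of 100 bp and as a percentage of the class, for the 259 members (red) and the 366 regions called with and without prednisolone (grey), both free of NR3C1. Both classes peak in the bin just upstream of the start; the median of the summits within 1 kb is −44.5 bp for the members and −60 bp for the other class.

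Fewer members than comparison regions had a counterpart in the mutant line, whose libraries the rule did not use. In untreated N642H cells, 154 of 259 members (59.5%, exact 95% interval 53.2 to 65.5) overlapped a STAT5B region, against 326 of 366 in the comparison class (89.1%, 85.4 to 92.1) and 76.1% of all 766 regions. The difference was −29.6 percentage points (95% interval −36.3 to −22.8; Fisher's exact test, adjusted p = 3.89e-17). The new regions at NR3C1 had a lower share than the members, 19 of 53 (35.8%, exact 95% interval 23.1 to 50.2), with no test run. A low share at untreated N642H regions was thus not particular to the members. The prednisolone STAT5B list of the N642H line was short, with 446 regions against 4542 in the untreated one. In prednisolone-treated N642H cells the share at a STAT5B region was 8.88% (23 of 259) in the members and 30.3% (111 of 366) in the comparison class, with 23.8% over the whole list. That difference was −21.4 points (−27.1 to −15.4; Fisher's exact test, adjusted p = 7.58e-11). The share at prednisolone N642H STAT5B regions was 22.6% (12 of 53) in the new regions at NR3C1. Regions of the N642H NR3C1 list with prednisolone were at 31 members (11.97%) and 111 of the comparison class (30.3%), a difference of −18.4 points (−24.3 to −11.99; Fisher's exact test, adjusted p = 6.94e-08). Over the whole list the share was 34.7%. That is not a like comparison, because the whole list includes the regions at NR3C1 of the WT line, which the rule set aside. Of those, 44 of 53 new regions (83.0%) and 80 of 88 called with and without prednisolone (90.9%) were at N642H NR3C1. The comparison class was by its definition called in a second STAT5B library, and it was stronger and wider; the part of width in these differences was not tested, and strength was examined only by bands of tag count.

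The classes were also set side by side in 3 bands of tag count, which are ranges and do not equalise strength, least of all in the widest band. At untreated N642H STAT5B regions, with 9 to 14 tags, 101 of 168 members (60.1%) and 89 of 114 comparison regions (78.1%) had a counterpart. With 15 to 17 tags the shares were 70.5% (43 of 61) and 90.6% (106 of 117). With 18 tags or more they were 33.3% (10 of 30) and 97.0% (131 of 135). In the comparison class the share rose with tag count, and in the members it was lowest in the top band. At prednisolone STAT5B regions of the N642H line the shares of members and comparison regions were 7.14% and 18.4% in the lowest band, 13.1% and 21.4% in the middle band and 10.0% and 48.1% in the top band. At N642H NR3C1 regions they were 10.7% and 30.7%, then 11 of 61 and 22.2%, then 6.67% and 37.0%. The member share was the lower one in each band of each list, but in the middle band the gaps at the prednisolone lists were smaller than over the whole classes. Leaving out regions beyond the first or last gene of a chromosome, the top band held 22 members, 45.5% of them with a counterpart in untreated N642H cells. At gene ends, 63.4% of 172 members had a counterpart in untreated N642H cells and 6.98% were at an N642H NR3C1 region. Away from gene ends these shares were 51.7% and 21.8% of 87, which include members at starts inside a gene.

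**Figure D3:**
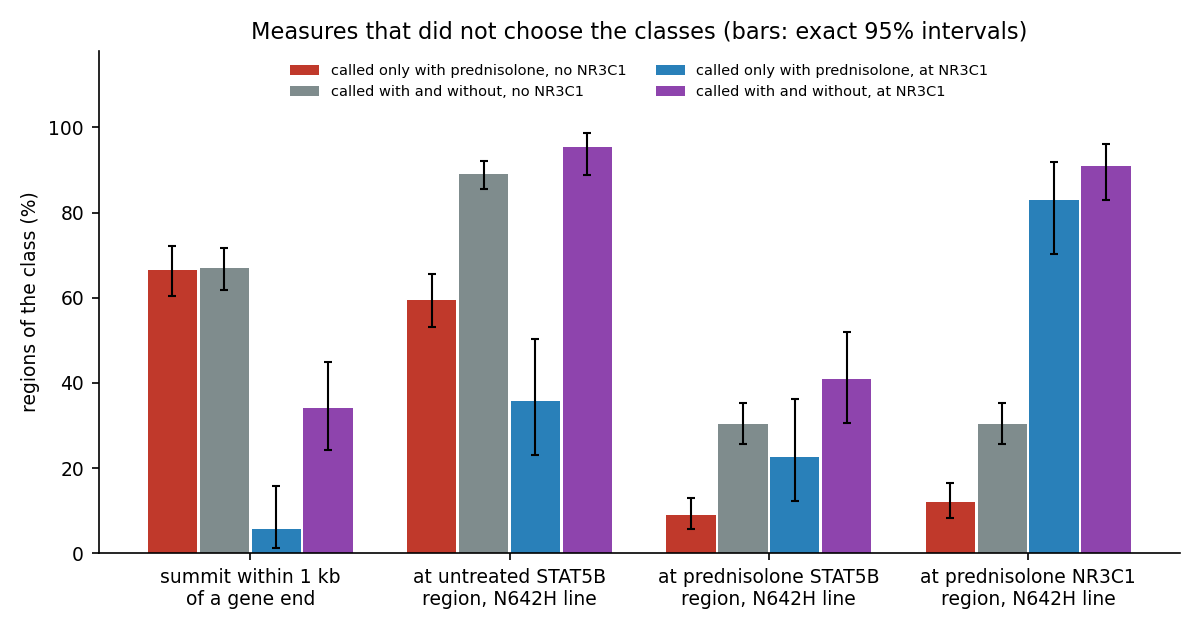
Percentage of each class with its summit within 1 kb of a gene end, or overlapping a region of the N642H line in 3 lists; error bars are exact 95% binomial intervals, which cover counting of regions only. Members (red) and the comparison class (grey) stand at 66.4% and 66.9% at gene ends and are apart in all 3 N642H lists; the new regions at NR3C1 (blue) are at gene ends in 5.66%.

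The 153 untreated N642H regions that overlapped members were 3.37% of that list of 4542. Their median fold was 6.66, against 7.83 for those at the comparison class and 6.13 over the list. Ranked by −log10 q, their median stood at percentile 66.8 of the list and that of the comparison class at 85.1. The 30 N642H NR3C1 regions at members had a median fold of 6.59, against 6.76 for those at the comparison class and 8.26 over that list, and a median percentile of 29.0, against 28.2 for the comparison class. The untreated NR3C1 lists held 2 regions in each line and none was at a member. In all, 94 members (36.3%) were in none of the 3 long N642H lists, against 28 (7.65%) of the comparison class.

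Several of the strongest members were at promoters, but strong members were not at gene ends more often than members as a whole. Of the 30 members with 18 tags or more, 15 were at a gene end, against 172 of all 259 members. Leaving out those beyond the first or last gene of a chromosome, it was 15 of 22, a share close to that of all members. No test was run on these shares. The highest fold, 12.2 with 21 tags, was at AKR1B1, which encodes aldose reductase, 78 bp upstream of the start whose sequence is printed above, and no N642H list had a region there. The DNAJC2 promoter, that of a ribosome-associated chaperone, had a fold of 11.5 with 22 tags in the WT line and 7.66 in untreated N642H cells. FZD1, a Wnt receptor, had 10.5, and NDUFA12, a subunit of respiratory complex I, had 10.1, both with no N642H region. GEMIN4, of the SMN complex that assembles spliceosomal particles, had 9.78 against 5.56 in untreated N642H cells. KMT2E, which encodes a SET-domain chromatin protein, had 8.74 against 6.00. The member with the highest −log10 q, 21.9, was not at a protein-coding gene, and other genes were not searched. It lay at chr1:180805-180884 on hg38, 109235 bp from OR4F5, an olfactory receptor gene, with 39 tags and a fold of 11.4. The other members of the first 20 in −log10 q had folds of 8.50 to 9.88, and HIGD2A, SETD1A and SH2B1 were among the 10 of the 20 that had a region in untreated N642H cells.

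**Figure D4:**
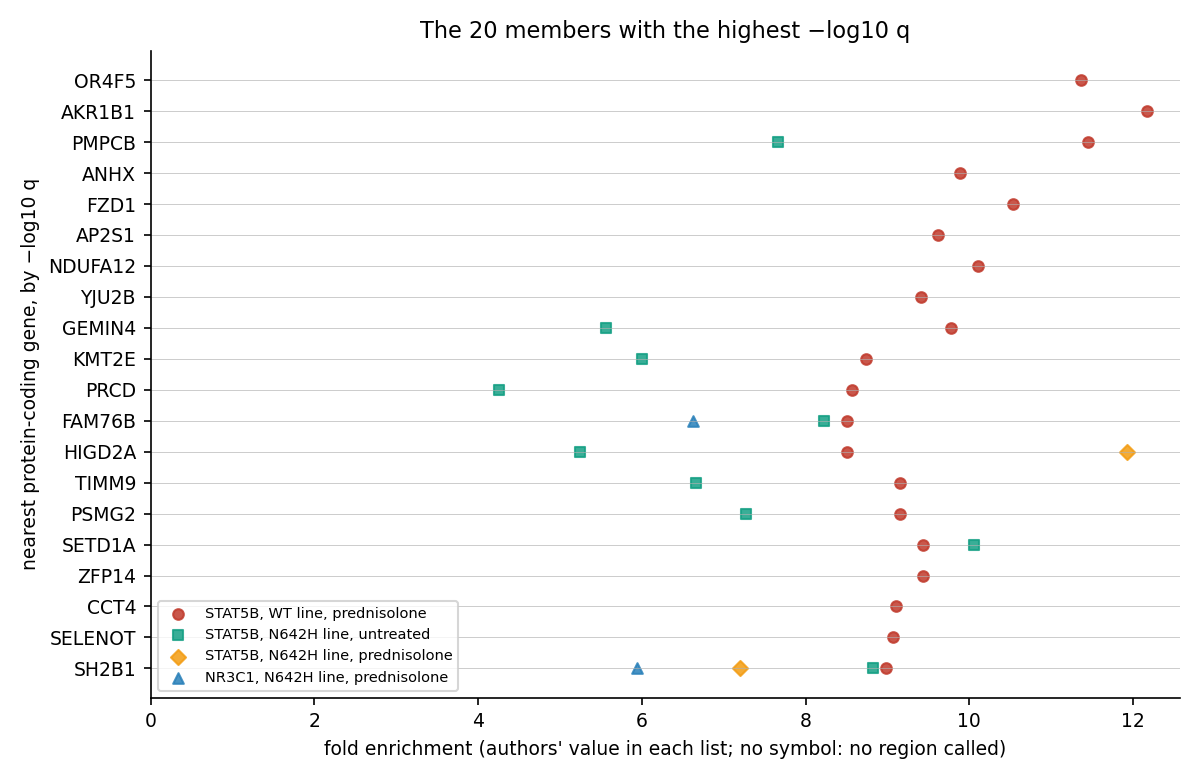
Fold enrichment of the 20 members with the highest −log10 q, named by the nearest protein-coding gene, in the WT prednisolone STAT5B list (red circles) and in the 3 N642H lists; no symbol means that no region was called. AKR1B1 has the highest fold, 12.2, with no N642H symbol, and SH2B1 has symbols in all 3 N642H lists.

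A small set of members lay at chromosome ends. Beyond the first or last gene of their chromosome lay 9 members (3.47%), against 4 of the comparison class (1.09%), and 5 of the 9 started below 12 kb, on chromosomes 1, 5, 7, 10 and 18. None of the 9 was in an N642H list. At chr1:10073-10180 the member had 47 tags over a local background of 11, giving a fold of 3.41. At chr22:50807992-50808128 it had 74 tags, the most of any member, over a background of 28.0 and a fold of 2.20, the lowest. The member nearest ANHX, at the end of chromosome 12, had 25 tags and a fold of 9.88, 3 bp from an untreated region. High local background, at least 10 times that of the genome, was found at 4 members, of 6 in the whole list. The part of local background in these calls was not tested.

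Few members were called for STAT5B in both lines after prednisolone, where the N642H list held only 446 regions. Of the 23 at a prednisolone STAT5B region of the N642H line, 20 were also at an untreated N642H region and 4 of these also at N642H NR3C1. The other 3 had a prednisolone region in each line but no untreated one at the same place, and were nearest PRKAB2, FOS and USE1. They were picked out after their values were seen. A prednisolone but no untreated N642H STAT5B region was thus at 1.16% of members and 1.37% of the comparison class. Over all 766 regions the share was 2.61%, and in the new regions at NR3C1 it was 18.9% (10 of 53). PRKAB2 encodes a regulatory subunit of the energy sensor AMP-activated kinase, and its member had a fold of 8.73 in the WT line and 7.86 in the N642H line. FOS, which encodes a subunit of the AP-1 transcription factor, had 7.71 and 5.99, with 15 and 12 tags. The member nearest USE1, a SNARE protein gene, had 7.33 and 7.91. The PRKAB2 member lay 6 bp and the FOS member 142 bp from a WT untreated region. For members in both N642H STAT5B lists, HIGD2A, a gene for a respiratory supercomplex factor, had 8.50 in the WT line, 5.24 in untreated and 11.9 in treated N642H cells. CPPED1, a phosphatase gene, had 8.28, 10.1 and 11.6. SH2B1, an adaptor of receptor tyrosine kinases and JAK2, had 8.98, 8.82 and 7.20, and 5.94 in the N642H NR3C1 list.

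Lists of cytokine and steroid pathway genes held few linked genes, in shares that the small lists do not set apart from all genes. A gene was linked when a member's summit was in it or within 20 kb, which held for 456 of 19866 protein-coding genes (2.30%). Of 30 known STAT5 targets 1 was linked (3.33%), MYC, the growth regulator, whose member lay 609 bp from an end of the gene with a fold of 5.43. That member also overlapped an untreated N642H region of fold 6.99 and an N642H NR3C1 region of 4.03. Of 30 glucocorticoid response genes 1 was linked, ZFP36, which encodes an mRNA-decay factor, 3393 bp from the member of fold 5.84, whose summit was 131 bp downstream of the start of the neighbouring gene PLEKHG2. None of 25 genes of the IL-7 receptor and JAK-STAT pathway and none of 20 BCL2 family genes, the regulators of mitochondrial cell death, was linked, where the share of all genes would give fewer than 1 in each list. Of 43 T-lineage genes 3 were linked: PTCRA, the pre-T-cell receptor chain, and IKZF3 and IKZF1, the Aiolos and Ikaros transcription factors, with folds of 7.66, 7.14 and 6.02. The members linked to PTCRA and IKZF3 lay 3659 and 3174 bp from the gene, the former with its summit 17 bp downstream of the start of CNPY3, a neighbouring gene, and that of IKZF1 was inside it. The 18 markers of other blood cells and the 18 of non-blood tissues had 0 linked genes.

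Among lists of broadly expressed genes the shares ran from 0 to 10.0%, on both sides of the share of all genes. Cytosolic ribosomal proteins had 7 linked of 79 (8.86%), 5 of them at a gene end, with folds of 8.99 at RPL38, 7.71 at RPL5, 7.39 at RPL27, 6.40 at RPS23 and 5.71 at RPL15. All of these but RPL15 had an untreated N642H region. Splicing factors had 5 of 50 (10.0%): PRPF31 at 8.88, SNRNP200 at 8.37, HNRNPL at 7.71, HNRNPH1 at 6.37 and SRSF11 at 6.37. The comparison class had 5 of 79 ribosomal protein genes linked (6.33%) and 6 of 50 splicing factors. A raised share of splicing factors was thus not particular to the members. Respiratory chain genes had 4 of 72 (5.56%), led by NDUFA12, and chromatin regulators 2 of 40, ARID1A and EED. In the comparison class these counts were 8 of 72 (11.1%) and 2 of 40. Translation factors (EEF1D), proteasome subunits (PSMC2, through the DNAJC2 promoter member), cell cycle genes (MCM7) and highly expressed promoters (PKM) had 1 each, of 44, 34, 49 and 24. The comparison class had 5, 3, 3 and 3. Replication-dependent histone genes, which lie in clusters, had 0 of 53 linked to members and 14 of 53 (26.4%) to the comparison class, and heat shock genes 0 of 26 and 4 of 26. Over all genes, 2.30% were linked to members and 3.32% to the comparison class. At the member share, lists of this size would hold few linked genes, so the zeros alone set neither list apart. Neighbouring genes share members, so these counts are not independent and no test was run on them.

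**Figure D5:**
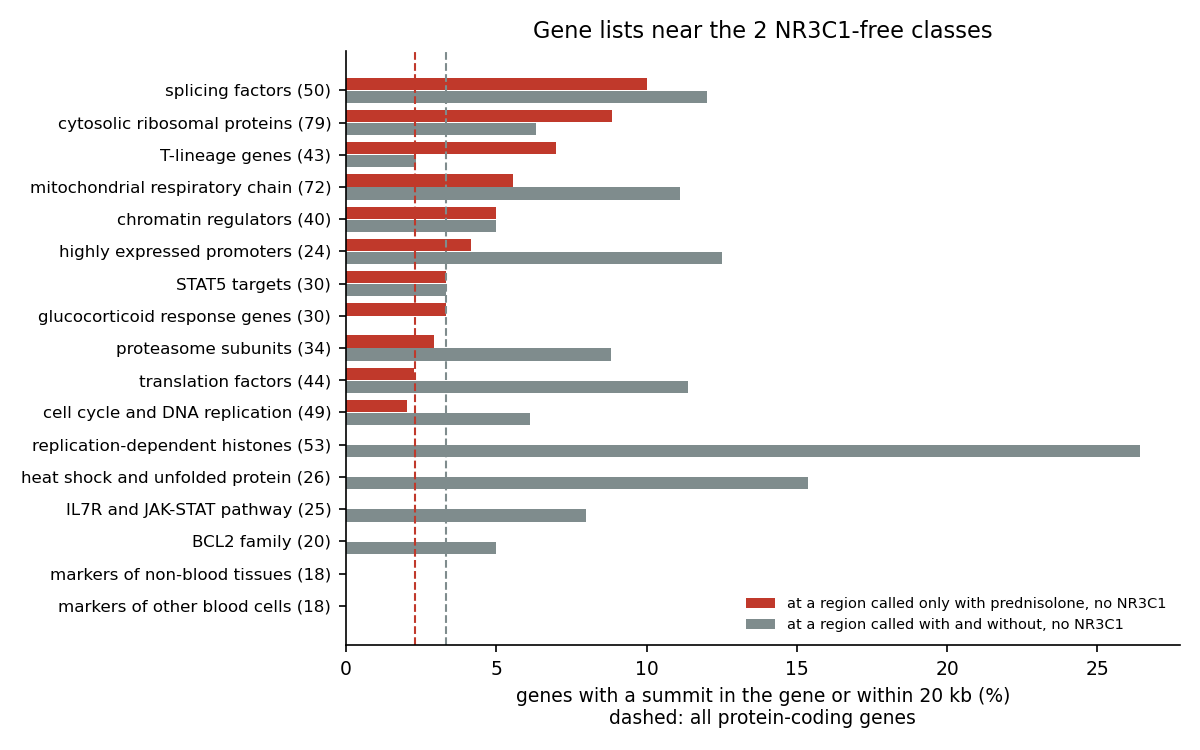
Percentage of the genes of each list (number of genes in brackets) with a summit in the gene or within 20 kb, for the members (red) and the comparison class (grey). Dashed lines are the shares of all protein-coding genes, 2.30% for the members and 3.32% for the comparison class. Splicing factors and ribosomal proteins show the longest red bars, 10.0% and 8.86%, and histone genes have 26.4% in grey and 0 in red.

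Members lay on every chromosome analysed except Y. Chromosome 1 held 33 (12.7%), chromosome 19 held 23, chromosome 2 held 22 and chromosome 5 held 19. Only 11 members lay within 10 kb of another member, among them pairs at SETD1A and TRIM41.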

How the data were processed

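Peak lists of 8 ChIP libraries (STAT5B and NR3C1 in 2 lines, untreated and with prednisolone, 1 library per group) were used. The 4 input libraries were not analysed here. Per the submitters' processing notes, BWA, MACS2, deepTools and hg38 were used; versions, peak thresholds and the control of each call are not given in the sources used here. Each deposited list gives per region a fold enrichment (ratio), −log10 p and −log10 q values, and a score that is 10 times −log10 q. The lowest −log10 q was above 2 in each long list.

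The summit's tag count and local background were computed from a region's fold and p, with a pseudocount of 1 in the fold. Tag counts are whole and unscaled. The weight of a tag in the fold was fitted per list: 0.849 for STAT5B and 0.894 for NR3C1 in treated WT cells, and 1 in the other long lists. Regions overlapped when they shared at least 1 base. Genes and promoters came from RefSeq (GRCh38.p14). Shares have exact (Clopper-Pearson) 95% intervals, differences Newcombe intervals, and 5 two-sided Fisher's exact tests were Benjamini-Hochberg adjusted at a threshold of 0.05 (Python 3.11.15, scipy 1.17.1, statsmodels 0.14.6). The tests count regions, which are not replicates of a condition. The scripts were tested on simulated data. Named genes were the nearest to the 20 members of highest −log10 q, the linked genes of 17 lists, up to 15 members in an N642H prednisolone list, and the 3 nearest an untreated region. MGAT1, USE1, CNPY3, PLEKHG2 and the genes at the rule's edges, at neighbouring pairs of members and with a STAT palindrome were named outside this rule, after their values were seen. Members and lists were chosen with earlier results of these data known.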

Additional observations from a re-analysis of the deposited data

How the results depend on the processing

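Of 48 alternative settings over 6 results, 44 kept the direction and the side of the threshold, or the count within 1.5 times. With −log10 q of at least 5 in the prednisolone list, 124 regions met the rule, and with the untreated list cut to the length of the prednisolone list 391 did, against 259. Without regions of high local background and those beyond the first or last gene, chosen after seeing the data, the difference at gene ends was 1.12 percentage points (68.8% against 67.7%, Fisher's exact test, adjusted p = 0.792). With the STAT palindrome counted only inside the called region, the difference was −0.14 points (1.94% against 2.08%, Fisher's exact test, adjusted p = 1). For both, the cause was not tested. The difference at untreated N642H regions ranged from −33.7 to −26.3 points, at prednisolone N642H STAT5B regions from −25.4 to −20.6 and at N642H NR3C1 regions from −18.5 to −16.0, with adjusted p of at most 0.000424 in each. No paired analysis was possible because each group had 1 library. The low tag counts limit which regions were called at all, and with no replicates the differences between lists cannot be told apart from differences between libraries.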
